A study of Arabidopsis halleri with 12 samples.

Results

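The comparison described here sets roots of an Arabidopsis halleri line with suppressed AhNAS2, labelled AhNAS2-RNAi-1-2 (RNAi), against roots of the Langelsheim wild type (WT), both grown with 10 µM zinc added to a hydroponic Hoagland solution. It rests on 6 of the 12 single-colour arrays of the study, 3 from RNAi zinc roots and 3 from WT zinc roots, and takes in all 22746 probe sets left after 64 control probe sets were set aside. The other 6 arrays came from the same lines in Hoagland solution without the added zinc. All plants were vegetatively propagated clones, 5 weeks old, and each array carried root RNA pooled from 3 plants, with 3 independent experiments. Only 1 RNAi line was profiled, so suppression of AhNAS2 cannot be told apart from anything else in which that line differs from WT. Roots are mixed tissue, in which fewer cells of a type and less RNA per cell cannot be told apart either.

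A. halleri hyperaccumulates zinc: it moves the metal from root to shoot instead of holding it back. Nicotianamine, made from S-adenosylmethionine by nicotianamine synthases such as NAS2, binds zinc, iron and copper and carries them within the plant. S-adenosylmethionine is also the source of ethylene, by way of ACC and the enzyme ACC oxidase, so that both products draw on the methionine cycle.

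The annotation gave exactly 1 A. thaliana gene for 13513 probe sets, several genes for 503 and no gene for 8730. No probe set was named for a nicotianamine synthase, so the level of the targeted gene could not be identified. The labels of the RNAi arrays were thus not checked against it. Whether any of the 8730 probe sets without a gene reads it cannot be told from the annotation. Array medians lay between 5.34 and 5.37 in RNAi zinc and between 5.35 and 5.38 in WT zinc (log2 signal). Distances between whole-array profiles were alike within and between the lines: the median absolute log2 difference between arrays was 0.119 to 0.161 among the RNAi zinc arrays, 0.123 to 0.133 among the WT zinc arrays, and 0.120 to 0.157 between the lines. RNAi zinc replicate 1 correlated with its own replicates at r = 0.988 and with the WT zinc arrays at r = 0.987 to 0.990 across probe sets, which are not independent. The first principal component of the 6 arrays did not part the lines, and the second, with 27.5% of the variance, did (-26.7, -6.04 and -3.78 in RNAi zinc, 14.5, 15.1 and 6.87 in WT zinc). The 3′ minus 5′ signal of the ubiquitin control, a sign of RNA integrity, was 0.458 to 0.510 in RNAi zinc and 0.513 to 0.574 in WT zinc, without overlap, while those of the actin and GAPDH controls overlapped. The part of this in the results was not tested. Markers of the labelled tissue were few among named probe sets. None of 7 endodermis and stele markers or 6 epidermis and meristem markers had one. Of 5 root hair markers, the expansins EXPA7 (7.17 to 8.17 in RNAi zinc, 7.48 to 8.11 in WT zinc) and EXPA18 (5.99 to 7.36 in RNAi zinc, 6.28 to 6.92 in WT zinc) were measured, and of 11 markers of photosynthetic shoot tissue only the Rubisco activase RCA (4.59 to 4.82 in RNAi zinc, 4.60 to 4.64 in WT zinc).

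With zinc added, the RNAi roots had less signal for the ACC oxidase AT1G12010, for the lipid-transfer family gene AT1G48750, for a probe set shared by 2 further genes of that family and for one shared by 2 class V chitinase genes. They had more for the phosphatase-related AT4G18593 and the class III peroxidase AT1G71695. In all, 12 probe sets passed the threshold (limma, Benjamini-Hochberg adjusted p under 0.05 over all probe sets tested), which is 0.0528% of those tested. Of these, 5 were higher in RNAi (0.022%) and 7 lower (0.0308%). The log2 differences of the lower ones ran from -2.93 to -1.44 and those of the higher ones from 0.76 to 2.52. Over all probe sets the differences centred on -0.00237 with an SD of 0.188, and the median limma standard error (SE) was 0.109. The 3 RNAi zinc arrays lay wholly above the 3 WT zinc arrays for 5.84% of all probe sets and wholly below for 6.82%. At an unadjusted p under 0.05, 3.74% of probe sets were higher and 3.98% lower. The count of calls depended on single arrays. With RNAi zinc replicate 2 or 3 left out, 4 or 6 probe sets passed, and with WT zinc replicate 1 or 3 left out, 2 or 29.

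**Figure D1:**
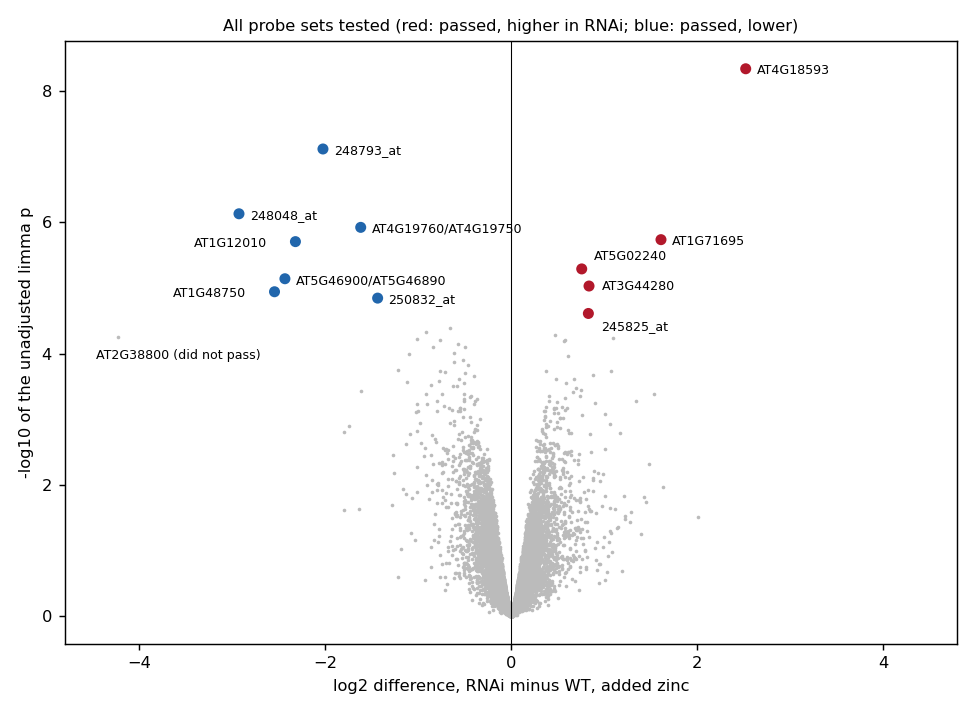
Log2 difference, RNAi minus WT in added zinc (horizontal axis), against -log10 of the unadjusted limma p (vertical axis) for all 22746 probe sets, with 1 point each. The 5 red points passed as higher in RNAi and the 7 blue points as lower; AT2G38800 had the lowest difference (-4.23) but did not pass (adjusted p = 0.0687).

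AT1G12010 encodes an ACC oxidase, the enzyme of the last step of ethylene synthesis. Its log2 signal was 6.97, 7.58 and 6.91 on the RNAi zinc arrays, against 9.39, 9.55 and 9.48 on the WT zinc arrays. All RNAi values were lower than all WT values by far more than the spread within either line, and the WT arrays hardly varied (SD 0.078, n = 3). The transcript fell by 2.32 on the log2 scale (SE 0.27, limma adjusted p = 0.00752), which is 4.99-fold lower in RNAi. In control medium the RNAi arrays stood at 7.89, 8.01 and 7.47, against 9.88, 9.96 and 8.85 in WT, again without overlap (log2 difference -1.77, adjusted p = 0.0581). The call in added zinc was lost without WT zinc replicate 1 (adjusted p = 0.0570) or RNAi zinc replicate 3 (adjusted p = 0.0564), with differences of -2.36 and -2.20.

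Lipid-transfer family proteins are small, cysteine-rich secreted proteins, many of them in the cell wall. AT1G48750, a member of this family, was at 7.07, 6.92 and 7.60 on the RNAi zinc arrays, against 10.0, 10.4 and 8.77 on the WT zinc arrays. The groups did not overlap, although WT zinc replicate 3 lay well below the other WT arrays. It fell by 2.54 (SE 0.35, limma adjusted p = 0.0261), or 5.83-fold. The call rested on most single arrays: it was lost without any one of RNAi zinc replicates 1, 2 and 3 (adjusted p = 0.0564 to 0.139) and WT zinc replicates 1 and 2 (adjusted p = 0.203 and 0.0844). It was also lost in the fit on the 6 zinc arrays alone (adjusted p = 0.170), with a block for the replicate number in the 12-array fit (0.0595) or within the 6 (0.268), and with a robust variance prior (0.0635).

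One probe set matched the neighbouring family members AT5G46900 and AT5G46890 and does not tell them apart. It read 7.33, 6.33 and 6.69 in RNAi zinc roots, against 9.42, 8.59 and 9.65 in WT zinc roots. Every RNAi array was lower than every WT array by over 1 log2 unit, and the signal fell by 2.43 (SE 0.32, limma adjusted p = 0.0207), or 5.395-fold. This was also a large difference in control medium, where the arrays read 6.18, 6.46 and 6.46 in RNAi and 8.77, 9.84 and 9.41 in WT (log2 difference -2.97, adjusted p = 0.0107). Without WT zinc replicate 1 (adjusted p = 0.161) or RNAi zinc replicates 2 or 3 (adjusted p = 0.108 and 0.106) the call in added zinc was lost, as it was in the fit on the 6 zinc arrays alone (adjusted p = 0.103). Of 41 family genes with a probe set of their own, 0 rose and 1, AT1G48750, fell, against 0.022% and 0.0308% of all probe sets. The family loci were written down after the values were seen, so this count is no test of the family. Of the 41, 22 had a positive and 19 a negative difference, and their median was 0.00939, against -0.00237 over all probe sets. After AT1G48750 the lowest value was that of AT1G73780 (-0.45) and the highest that of AT5G55450 (0.81), and neither passed.

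Enzymes of glycosyl hydrolase family 18, the family of class V chitinases, are encoded by a run of neighbouring genes that includes AT4G19750 and AT4G19760. The probe set shared by these 2 genes was at 6.50, 6.26 and 6.36 on the RNAi zinc arrays, against 8.11, 8.22 and 7.64 on the WT zinc arrays. It fell by 1.62 (SE 0.18, limma adjusted p = 0.00684), or 3.07-fold. In control medium the lines lay close, at 6.54, 6.36 and 6.40 in RNAi and 7.18, 6.46 and 6.90 in WT (log2 difference -0.42, adjusted p = 0.538), and the groups overlapped. The WT zinc arrays were thus the high ones among all 12. The line difference in added zinc minus that in control medium was -1.20 on the log2 scale (SE 0.25, unadjusted p = 0.000498), and the interaction did not pass over all probe sets (limma adjusted p = 0.9999). Leaving out WT zinc replicate 1 or RNAi zinc replicate 2 ended the call (adjusted p = 0.0570 and 0.0547), as did the replicate block within the 6 zinc arrays (adjusted p = 0.0799).

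A second shared probe set of the run, for AT4G19800 and AT4G19770, was singled out after its values were seen. It stood at 6.09, 6.13 and 6.05 in RNAi zinc, against 4.24, 4.25 and 5.91 in WT zinc (log2 difference 1.29, SE 0.51, limma adjusted p = 0.564). Its WT arrays fell into a low and a high level in both media, with 6.04, 6.38 and 4.26 in WT control, whereas all RNAi arrays were at the high level. Of the 4 genes of the run with a probe set of their own, AT4G19740 had the lowest value (-0.26, SE 0.075, adjusted p = 0.361), and 0 passed.

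AT1G71695, a class III peroxidase, belongs to the secreted enzymes that use hydrogen peroxide in the wall, among other things in lignin formation. Its signal was 6.12, 5.95 and 5.80 in RNAi zinc, against 4.35, 4.23 and 4.45 in WT zinc. The groups were over 1 log2 unit apart, and it rose by 1.61 (SE 0.19, limma adjusted p = 0.00752), or 3.06-fold. Its WT zinc mean lay at percentile 33.2 of all probe sets by level. The RNAi level was the same in both media to within the spread of the arrays (5.86 to 6.14 in control), whereas WT ranged from 4.46 to 5.38 in control medium. Without WT zinc replicate 1 (adjusted p = 0.0570) or RNAi zinc replicate 2 (adjusted p = 0.0559) the call was lost. AT1G71695 was the only 1 of 52 class III peroxidases measured, of 73 listed, that passed, where 0.0528% of all probe sets did. The loci of this family were written down after the values were seen, so the count is no test of the family. Of the 52, 26 had a positive and 26 a negative difference, with a median of 0.000833. Other family members with high values were AT2G41480 (0.75, SE 0.31), AT4G08780 (0.53, SE 0.22) and AT1G68850 (0.52, SE 0.20). The lowest were AT5G15180 (-0.51, SE 0.38) and AT5G06730 (-0.40, SE 0.44).

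AT4G18593, annotated in A. thaliana as related to dual-specificity phosphatases, had the smallest p of the comparison. It was at 8.08, 8.27 and 8.56 in RNAi zinc, against 5.66, 5.61 and 6.07 in WT zinc. The spread within each line was small (SD 0.24 in RNAi zinc and 0.25 in WT zinc, n = 3), and the groups lay far apart. The transcript rose by 2.52 (SE 0.17, limma adjusted p = 0.000106), and the call held in 18 of 18 alternative settings, with differences of 2.39 to 2.67. The levels in control medium were close to these, at 8.43, 8.40 and 8.89 in RNAi and 5.58, 5.69 and 5.85 in WT.

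AT5G02240, a protein with a Rossmann fold of the kind that binds NAD(P), showed a small but tight change. Its signal was 7.59, 7.66 and 7.72 in RNAi zinc, against 6.90, 6.81 and 6.99 in WT zinc. It rose by 0.76 (SE 0.097, limma adjusted p = 0.0168), with SDs of 0.063 and 0.088. AT3G44280 was at 6.41, 6.25 and 6.50 in RNAi zinc, against 5.45, 5.68 and 5.52 in WT zinc, and rose by 0.84 (SE 0.11, adjusted p = 0.0237). The groups overlapped for neither gene, in added zinc or in control medium. The call of AT5G02240 was lost without RNAi zinc replicates 2 or 3 or WT zinc replicates 1 or 2 (adjusted p = 0.0844 to 0.123) and with the replicate block within the 6 zinc arrays (0.132), and that of AT3G44280 without any one of RNAi zinc replicates 1 to 3 or WT zinc replicates 1 and 3 (adjusted p = 0.0569 to 0.185), on the 6 zinc arrays alone (0.0683) and there with the block (0.182).

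The remaining 4 probe sets that passed carried no gene name. The annotation does not tell whether any of them reads the targeted AhNAS2. Probe set 248048_at was at 8.05, 7.25 and 7.56 in RNAi zinc, against 10.6, 9.92 and 11.1 in WT zinc, and fell by 2.93 (SE 0.31, limma adjusted p = 0.00567), or 7.60-fold. Its RNAi values in control medium were higher, at 9.14, 8.72 and 8.09, while WT stayed at 10.9, 10.8 and 10.6. Probe set 248793_at was at 4.36, 4.01 and 4.25 in RNAi zinc, against 6.27, 6.59 and 5.84 in WT zinc, and fell by 2.02 (SE 0.17, adjusted p = 0.000878). For both, all RNAi arrays lay below all WT arrays in each medium. A further unnamed probe set fell by 1.44 (SE 0.20, adjusted p = 0.0297), and another rose by 0.83 (SE 0.12, adjusted p = 0.0466). The call of 248048_at was lost only without WT zinc replicate 1 (adjusted p = 0.0570) among all settings tried, and that of 248793_at only with the replicate block within the 6 zinc arrays (adjusted p = 0.0960). Those of the last 2 were lost without any one of 5 of the 6 zinc arrays, all but WT zinc replicate 3 for the one that rose (adjusted p = 0.106 to 0.302) and all but RNAi zinc replicate 1 for the one that fell (adjusted p = 0.0621 to 0.161). Both were also lost on the 6 zinc arrays alone (0.132 for the one that rose and 0.104 for the one that fell), there with the block (0.174 and 0.0971) and with the spike-in covariate (0.113 and 0.0800).

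**Figure D2:**
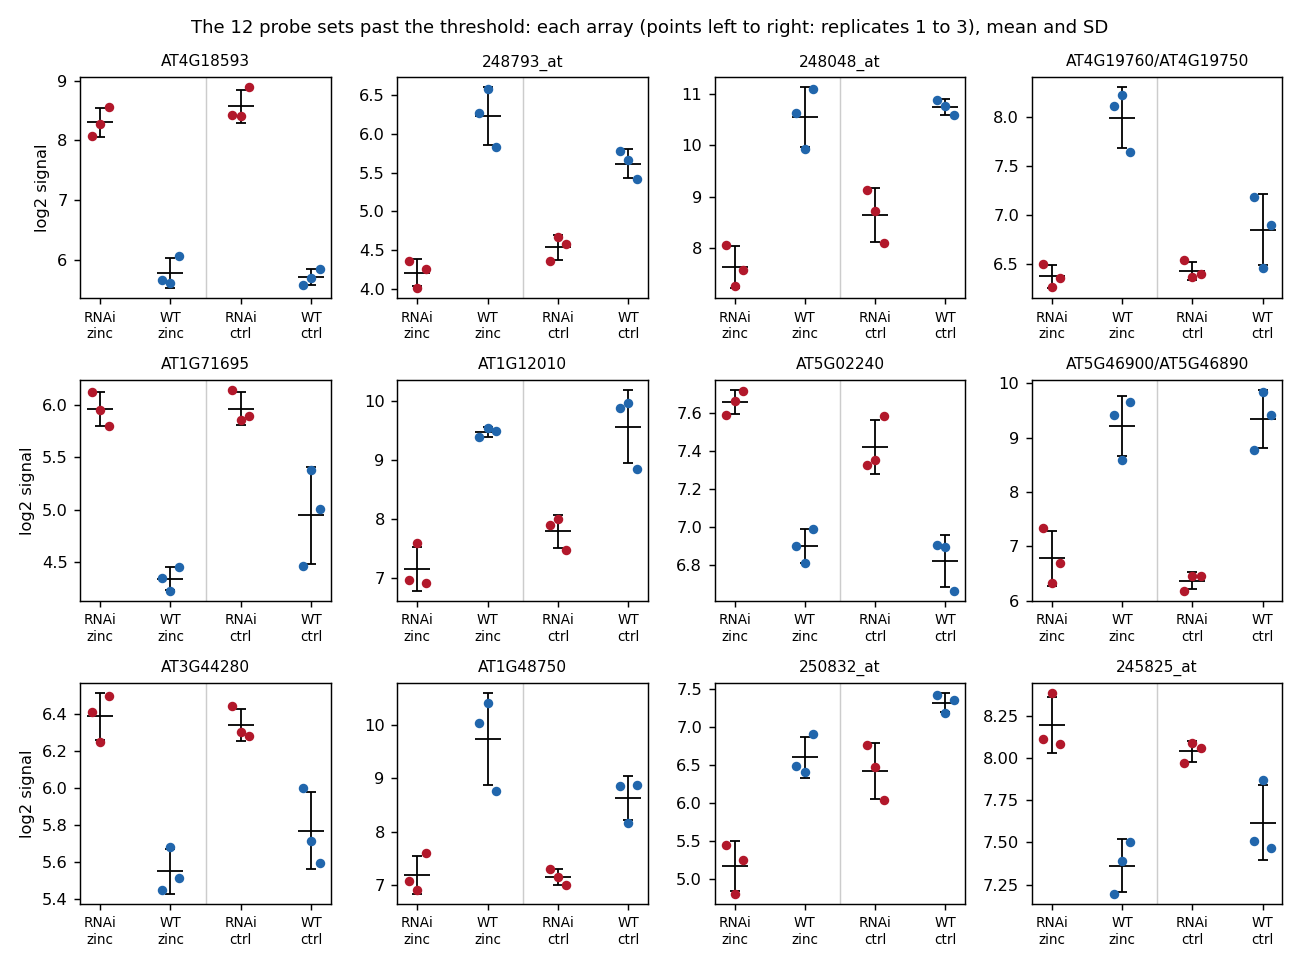
Log2 signal of the 12 probe sets that passed in added zinc, on each array of RNAi and WT roots with zinc and in control medium (ctrl), with the mean and SD (n = 3). In added zinc the lines do not overlap in any panel; AT4G19760/AT4G19750 is the panel in which they overlap in control medium.

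The control-medium arrays are separate arrays of the same lines, and they give a second reading of the 12 probe sets. That reading is not independent of the calls, because the spread within the control groups entered the 12-array fit. A small spread there favours both a call and groups without overlap. All 12 had the same sign there, 11 had groups that did not overlap, against 6.82% of all probe sets wholly higher and 7.09% wholly lower in control medium, and 2 passed there, where 5 probe sets (0.022%) passed in all. In 10 of the 12 the difference was larger in added zinc, but the 12 were selected on that difference, so this count shows nothing about the medium. For AT1G48750 the WT arrays read 8.86, 8.16 and 8.87 in control medium, lower than 2 of the 3 WT zinc arrays, while the RNAi arrays stayed between 6.997 and 7.31. The interaction of line and zinc passed for 0 of all probe sets with limma, and 497 (2.18%) were past an unadjusted p of 0.05. A larger line difference in added zinc than in control medium was thus not shown for any single gene.

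Beyond these, 271 of the 13513 single-gene probe sets had an unadjusted limma p under 0.01 and groups that did not overlap, without passing. Of the 271, 115 were higher and 156 lower in RNAi. Among all 22746 probe sets, 509 (2.24%) had a p under 0.01, with or without overlap and calls included. The 10 highest and 10 lowest are given as values that did not pass. The lowest was AT2G38800, related to calmodulin-binding proteins. It was at 3.52, 3.78 and 4.74 in RNAi zinc, against 7.94, 8.69 and 8.09 in WT zinc (log2 difference -4.23, SE 0.69, limma adjusted p = 0.0687). The RNAi mean lay at percentile 26.2 of all probe sets by level, and no detection call was used here. It passed in 4 of 18 alternative settings, among them the fit on the 6 zinc arrays alone (adjusted p = 0.0107).

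The other low values were spread over many functions. AT5G01740, of the nuclear transport factor 2 family, was at 7.73, 6.46 and 7.78 in RNAi zinc, against 9.63, 8.47 and 9.27 in WT zinc (log2 difference -1.80, SE 0.44). AT1G56610, an F-box protein of the kind that selects proteins for degradation, was at 4.73, 4.33 and 4.56 against 6.22, 7.09 and 5.55 in WT zinc (-1.75, SE 0.41). AT2G26240 was at 7.54, 7.19 and 7.01 against 8.93, 8.90 and 8.75 in WT zinc (-1.61, SE 0.33). Of these 3, AT2G26240 had the least spread among WT zinc arrays (SD 0.095) and the most among WT control arrays (SD 0.91). It passed in the fit on the 6 zinc arrays alone (limma adjusted p = 0.0170) and there with the replicate block (adjusted p = 0.0280). AT5G01740 also passed with that block (adjusted p = 0.0280). The mannose-binding type lectin gene JAL22 (-1.26, SE 0.38), the DnaJ-type chaperone AT2G21510 (-1.13, SE 0.29), AT5G12350 of the RCC1 repeat family (-1.11, SE 0.22), the acidic ribosomal protein AT2G40010 (-1.101, SE 0.19) and the fructokinase-type AT3G59480 (-1.02, SE 0.25) had adjusted p-values of 0.0883 to 0.385. Leaving out WT zinc replicate 3 took AT3G59480 (-1.36, adjusted p = 0.0145) and AT2G21510 (-1.50, adjusted p = 0.0457) past the threshold, while without WT zinc replicate 2 AT3G59480 was at -0.67. Over all settings AT3G59480 ranged from -1.36 to -0.67 and AT2G21510 from -1.50 to -0.88. AT3G12900 is given with the iron genes.

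Among the high values, AT1G52820 and AT1G80320 encode 2-oxoglutarate and iron dependent oxygenases, a large enzyme family that also holds ACC oxidase and AT3G12900. AT1G52820 was at 10.1, 10.6 and 10.2 in RNAi zinc, against 8.51, 8.71 and 9.10 in WT zinc (log2 difference 1.54, SE 0.32, limma adjusted p = 0.170), and it passed on the 6 zinc arrays alone (adjusted p = 0.0444). AT1G80320 was at 7.47, 8.34 and 7.56 in RNAi zinc, against 6.74, 6.45 and 6.97 in WT zinc (1.07, SE 0.25), while in control medium its difference was 0.016. STZ, a zinc-finger repressor known from stress responses, was at 8.46, 6.72 and 7.05 in RNAi zinc, against 5.63, 6.26 and 5.88 in WT zinc (1.48, SE 0.43, adjusted p = 0.361). Replicate 1 of the RNAi line carried the highest STZ value, and without it the difference was 0.96. AT5G43930, a WD-repeat protein, was at 6.85, 6.84 and 6.49 against 5.64, 5.29 and 5.95 in WT zinc (1.1, SE 0.18, adjusted p = 0.0687) and passed without WT zinc replicate 3 (adjusted p = 0.0321). The rest were the CCCH zinc-finger gene AT1G66810 (1.01, SE 0.23), the VQ-motif gene AT3G56880 (0.88, SE 0.27), AT5G66650 of the calcium uniporter family (0.86, SE 0.23), the aspartyl protease AT3G51330 (0.77, SE 0.24), AT4G09640 (0.77, SE 0.17) and AT1G24575 (0.74, SE 0.15). All 20 of these genes had the same sign in control medium. So did 35 of 35 higher and 34 of 35 lower probe sets with differences of more than 1 log2 unit. The shared sign thus does not set the 20 apart.

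**Figure D3:**
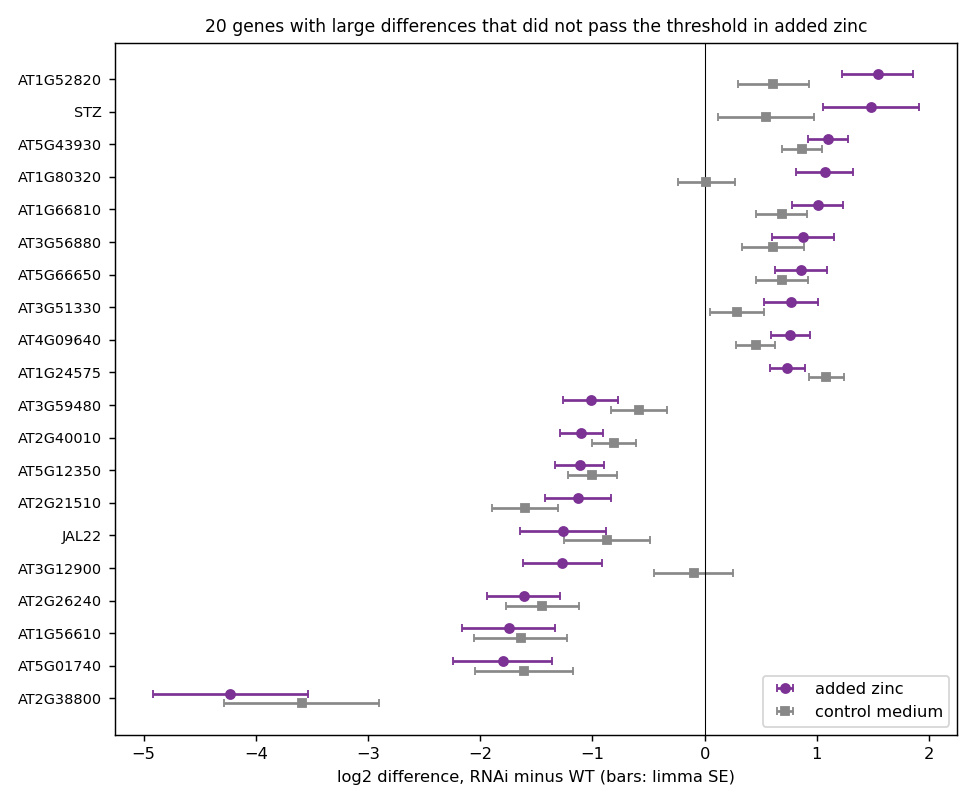
Log2 difference, RNAi minus WT, with the limma SE, in added zinc (circles) and in control medium (squares) for the 20 genes with large differences that did not pass in added zinc. The differences lie on the same side of 0 in both media for all 20, with AT1G80320 (0.016) and AT3G12900 (-0.098) close to 0 in control medium.

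Differences of more than 1 log2 unit were found for 35 probe sets higher and 35 lower in RNAi, and these sets differed in how evenly the arrays carried them. Of the higher ones, 23 had groups that did not overlap, where 5.84% of all probe sets were wholly higher. Their median SD was 0.73 among RNAi zinc arrays, against 0.326 among WT zinc arrays. Of the lower ones, 30 did not overlap, where 6.82% of all probe sets were wholly lower, and the median SDs were 0.325 in RNAi zinc and 0.525 in WT zinc. Both sets were selected on the difference in these same arrays, which favours groups without overlap and single extreme values. The counts and SDs thus describe the sets and test nothing. RNAi zinc replicate 1 was the highest RNAi array for 21 of the 35 higher probe sets (60.0%), against 40.2% of all probe sets with a positive difference. For the lower ones replicate 2 was the lowest RNAi array in 23 of 35 (65.7%), against 32.3% of all with a negative difference. Genes with such uneven high values, chosen after they were seen, included the calmodulin-like CML37, at 8.53, 6.84 and 7.37 in RNAi zinc and 5.51, 6.66 and 5.64 in WT zinc (log2 difference 1.64, SE 0.54, limma adjusted p = 0.457). AT4G29780 was at 8.54, 6.30 and 6.08 in RNAi zinc, against 5.65, 5.95 and 5.46 in WT zinc, and AT4G27654 at 6.69, 4.50 and 4.43 against 3.62, 3.95 and 4.37. In both, replicate 1 of the RNAi line stood more than 2 log2 units over the other RNAi arrays.

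**Figure D4:**
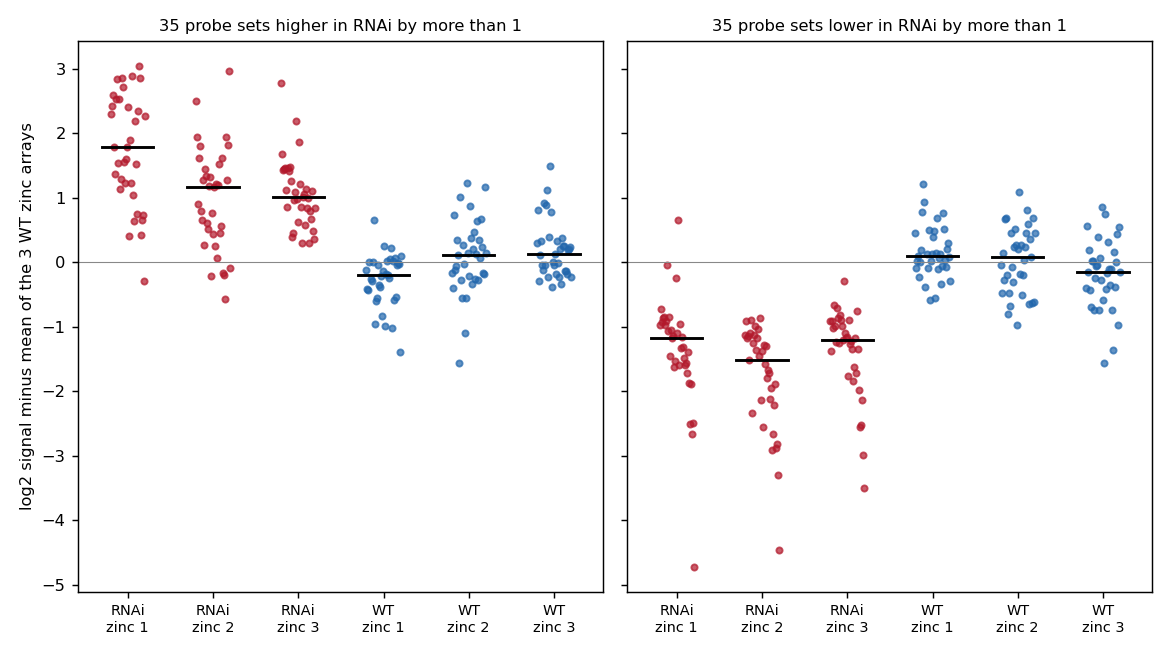
Log2 signal minus the mean of the 3 WT zinc arrays, per array, for the 35 probe sets higher and the 35 lower in RNAi by more than 1 log2 unit; bars are medians. The median was 1.78 on RNAi zinc replicate 1 and 1.17 and 1.01 on replicates 2 and 3 in the higher set, and -1.17, -1.52 and -1.20 in the lower set.

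The 17 lists of metal, methionine, ethylene, marker and housekeeping genes held 190 genes, of which 32 had a probe set named for them alone. The lists were chosen with earlier results of these data known, so counts within them are no test. Iron uptake under control of the regulator FIT includes the synthesis and release of coumarins, which dissolve iron in the soil. Of its 17 genes 4 were measured, all in coumarin synthesis or release, and 0 passed (against 0.0528% of all probe sets). All 4 had negative differences, with a median of -0.49, as did 11539 of all 22746 probe sets. AT3G12900, the scopoletin hydroxylase, was at 8.21, 7.59 and 7.90 in RNAi zinc, against 9.32, 9.44 and 8.75 in WT zinc (log2 difference -1.27, SE 0.35, limma adjusted p = 0.344). AT3G13610, the feruloyl-CoA hydroxylase before it, was at 10.0, 9.85 and 9.56 in RNAi zinc, against 10.7, 10.8 and 10.0 in WT zinc (-0.68, SE 0.19). The groups did not overlap for AT3G12900 and overlapped narrowly for AT3G13610. COSY, the coumarin synthase AT1G28680 that closes the ring, was at 8.69, 8.77 and 8.48 against 9.04, 8.99 and 8.81 in WT zinc (-0.30, SE 0.11), without overlap. BGLU42, a glucosidase acting on coumarin glucosides, had a difference of -0.17. Of the 4 probe sets 2 were wholly lower in RNAi, against 6.82% of all probe sets. In control medium the list's median was -0.15, with AT3G12900 at -0.098 and AT3G13610 at 0.064. The interaction had an unadjusted p of 0.0359 for AT3G12900 and 0.0177 for AT3G13610, and neither passed over all probe sets.

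Of the iron deficiency regulators outside FIT, 9 of 16 were measured by 10 probe sets, and 0 passed, where 0.0528% of all probe sets did. Their median was -0.054, with 8 probe sets below 0 and 2 above. BHLH101, a helix-loop-helix factor induced by iron deficiency, was at 4.15, 4.46 and 4.61 in RNAi zinc, against 4.67, 4.99 and 5.17 in WT zinc (log2 difference -0.54, SE 0.26). BTSL2, an iron-binding ubiquitin ligase of the response, was at 8.19, 8.08 and 8.17 against 8.40, 8.26 and 8.45 in WT zinc (-0.22, SE 0.096). Of the 10 probe sets these 2 had lines without overlap, each lower in RNAi, against 6.82% of all probe sets. The related ligase BTSL1 was at -0.13 and -0.16 with its 2 probe sets. Factors that act upstream in the response lay near 0: ILR3 at 0.039 (SE 0.079), bHLH34 at -0.019, bHLH104 at -0.046 and bHLH115 at 0.12. PYE (-0.062) and the small peptide gene AT1G47400 (-0.029, SE 0.49) lay there too.

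Zinc uptake and its regulation could be read from 4 of 16 genes, and 0 passed, where 0.0528% of all probe sets did. The zinc-sensing regulator bZIP19 had a difference of 0.12 (SE 0.13) and its relative bZIP24 one of -0.17 (SE 0.19). ZIP6 stood at -0.12 (SE 0.14). ZIP9, which codes for a ZIP-type transporter and responds to low zinc, was at 10.4, 10.3 and 9.36 in RNAi zinc, against 10.1, 9.60 and 10.0 in WT zinc (0.096, SE 0.38), with overlap. Of 20 genes for zinc and manganese efflux and storage, 3 were measured: the manganese carriers AT3G58060 (-0.13, SE 0.26) and MTP11 (0.15, SE 0.13) and AT2G04620, also called MTP12 (-0.071, SE 0.18). The copper chaperone CCS, which loads copper into superoxide dismutase, was at 0.28 (SE 0.19) and the metallothionein MT1C at 0.28 (SE 0.16), and neither passed.

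Around methionine and ethylene, AT1G12010 passed and no other measured gene did, where 0.0528% of all probe sets passed. The lists were chosen with earlier results of these data known, so this call is no test of them. The measured genes were 2 of 17 in the methionine cycle, 1 of 14 in ethylene synthesis and 2 of 14 in ethylene perception and signalling. AT1G14810, aspartate-semialdehyde dehydrogenase on the way to methionine, lysine and threonine, was at 5.02, 4.98 and 5.34 in RNAi zinc, against 6.53, 5.52 and 5.68 in WT zinc. The groups did not overlap (log2 difference -0.80, SE 0.26, limma adjusted p = 0.442), and the difference was -1.64 in control medium. The methionine gamma-lyase MGL, which breaks methionine down, was at -0.43 (SE 0.26) with overlap. On the side of ethylene perception, the transcription factor EIN3 (0.076, SE 0.11) and RTE1, a positive regulator of the receptor ETR1, (0.18, SE 0.11) lay close to 0. The housekeeping genes SAND (AT2G28390, 0.041) and TIP41 (AT4G34270, 0.25, SE 0.11) did not pass.

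**Figure D5:**
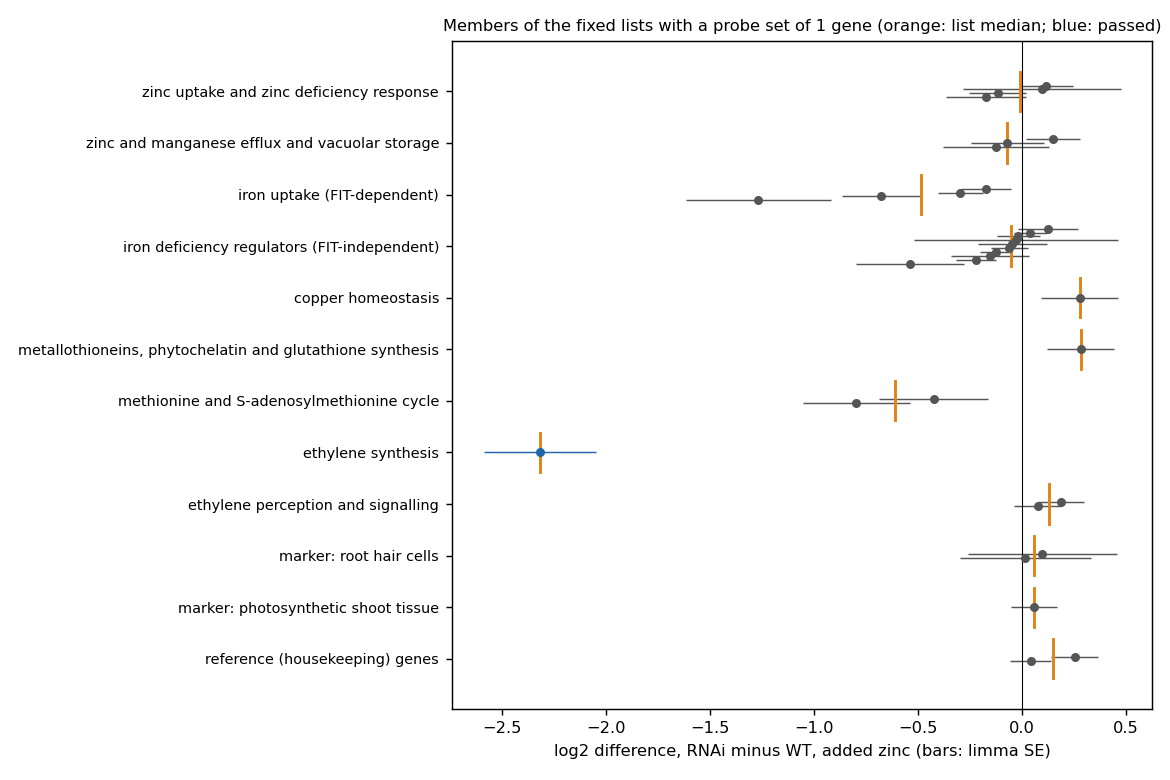
Log2 difference, RNAi minus WT in added zinc, with the limma SE, for each list member with a probe set of 1 gene (1 point per probe set). Orange bars are list medians. The lists were chosen with earlier results of these data known. The ACC oxidase AT1G12010 (-2.32, ethylene synthesis) is the point that passed, and all 4 iron uptake points lie below 0. Of all 22746 probe sets, 11539 had a negative difference.

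Among the other enzyme families followed, 0 members passed, where 0.0528% of all probe sets did. Counts of 0 thus say little about families of these sizes. Of 9 xyloglucan endotransglucosylases, which cut and rejoin wall xyloglucan, 7 had negative differences, with a median of -0.34 (control medium -0.25). XTH19 was at 3.54, 3.63 and 3.54 in RNAi zinc, against 4.07, 3.76 and 3.89 in WT zinc (log2 difference -0.34, SE 0.098, limma adjusted p = 0.361), and XTH18 had a difference of -0.37 (SE 0.14). XTH26 varied widely in both lines, from 8.73 to 10.1 in RNAi zinc and from 8.94 to 9.77 in WT zinc. Medians lay near 0 for 14 expansins (0.013), 7 tubulins (0.033), 13 glutathione S-transferases (0.012), 26 cytochromes P450 (-0.023) and 47 UDP-glycosyltransferases (-0.019), and 0 of these passed. Among the last, UGT76C2, which inactivates cytokinins by glucosylation, was at 4.86, 5.13 and 5.10 in RNAi zinc, against 5.73, 5.65 and 5.45 in WT zinc (-0.58, SE 0.12, adjusted p = 0.147). The tubulin TUB1 was at 6.78, 6.81 and 6.55 against 7.12, 6.93 and 7.03 in WT zinc (-0.31, SE 0.13), without overlap.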

How the data were processed

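Root RNA was hybridized to 12 single-colour arrays. The deposited values are log2 expression summaries per probe set, made by the authors with RMA and the affy package, per the submitters' processing notes; no source used here gives their versions or the probe definition. Genes were named from the platform annotation (A. thaliana names), so signal in A. halleri also depends on the match to the probes. A group-means model over all 12 arrays was fitted with limma 3.58.1 in R 4.3.3 (lmFit, eBayes, 8 residual and 3.79 prior degrees of freedom), and the contrasts RNAi minus WT in added zinc, in control medium and their interaction were tested two-sided, with Benjamini-Hochberg adjustment over 22746 probe sets and a threshold of 0.05. No filter, scaling or sequence was added, and the procedure was tested on simulated data. The labels do not link replicate numbers to experiments. The p-values thus rest on the variation among pooled root samples, and 3 arrays a group limit the precision. No 2 zinc arrays held the same value for more than 0.0615% of probe sets. The numbers were not taken as pairs in the main fit, because the design text names no block. Deviations from the group means of same-numbered RNAi and WT zinc arrays correlated at 0.338, 0.00912 and -0.0214. Such deviations sum to 0 over the 3 arrays of a group, so these values cannot show whether the arrays were paired.

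Members and lists were chosen with earlier results of these data known, and the loci of the peroxidase and lipid-transfer families were written down after the values were seen. Genes named by rule are the probe sets past the threshold and the measured list members. Named by rule too are the 10 highest and 10 lowest single-gene differences that did not pass, at an unadjusted p under 0.01 without overlap. All other genes, including the single members named within families, were chosen after their values were seen. Of 17 lists, 5 had no named member: nicotianamine synthesis, chelate transport, ferritins, root endodermis and stele, and root epidermis and meristem. Alternatives were other sets of arrays, the replicate block, variance priors, scalings, a spike-in covariate, array weights, filters and leaving out each array.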

Additional observations from a re-analysis of the deposited data

How the results depend on the processing

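Over up to 18 alternative settings a result, each called probe set and each of the 20 large differences that did not pass kept its direction in every setting in which it was tested. The count of 12 probe sets was within 1.5 times in 13 settings, and outside it with only the 13513 single-gene probe sets tested (6, since the other calls were not among them) and with single zinc arrays left out (2 to 29). With the replicate number as a block the count was 15 over all 12 arrays, 11 of them shared with the 12, and 8 within the 6 zinc arrays, 5 of them shared; the arrays share a number only, and while RNAi replicate 1 correlated best with WT replicate 1, replicate 2 did so with WT replicate 3 (0.0742) and replicate 3 with WT replicate 2 (0.346). The fit on the 6 zinc arrays without a block gave 15, with 7 shared, array weights gave 18, and the spike-in covariate 11, with 10 shared. Single calls were lost in 51 of the settings by probe set tried and gained in 11; the cause was not tested. The interaction count was 0 in every setting run, including the block (0) and without each array; its smallest adjusted p was 0.292, without WT control replicate 1. No scaling moved the median of all probe sets by more than 0.01. Medians of gene lists and families moved by more than the spread between arrays in 6 cases, tubulins without RNAi zinc replicate 1 or 3 or WT zinc replicate 2, and the families of P450s (-0.123), lipid-transfer proteins (0.158) and UDP-glycosyltransferases (0.0579) with only the brighter probe sets. Signal over background was not measured, which limits what the low RNAi values of AT2G38800 and 248793_at show of the size of their differences. The same holds for the low WT zinc values of AT1G71695.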

Other observations

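Some gene groups outside the comparisons above were looked at after the values had been seen. With 0.0528% of all probe sets passing in added zinc, a count of 0 says little about groups of these sizes. Of 15 defensin and defensin-like genes, small antimicrobial-type peptides that in A. halleri have also been tied to zinc tolerance, 0 passed in added zinc. Their median was -0.00719, and 3 had groups without overlap, each lower in RNAi, against 6.82% of all probe sets. PDF2.5 was at 3.93, 3.64 and 3.68 in RNAi zinc, against 4.79, 4.47 and 4.05 in WT zinc (log2 difference -0.69, SE 0.19, limma adjusted p = 0.333), and PDF2.1 at 4.98, 4.41 and 4.50 against 5.24, 5.11 and 5.20 in WT zinc (-0.55, SE 0.29). Among 22 TBL wall acetyltransferases TBL38 was at 7.45, 7.79 and 7.35 in RNAi zinc, against 8.09, 7.93 and 7.88 in WT zinc (-0.44, SE 0.13), and of 20 beta-glucosidases BGLU43 was at 5.35, 5.54 and 5.16 against 4.68, 4.54 and 4.81 in WT zinc (0.67, SE 0.13). None of these passed. Among 29 serine carboxypeptidase-like genes 0 passed and the median was 0.0106, and among 14 SWEET sugar transporters 0 passed and the median was 0.00115.

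Chloroplast-encoded genes had a median of -0.0903 over 43 genes (28 below 0, 15 above), and 0 passed. WT zinc replicate 2 was the highest of the 6 zinc arrays for several of those with low differences. The photosystem gene psbM was at 5.80, 6.23 and 5.79 in RNAi zinc, against 6.22, 7.42 and 6.08 in WT zinc, and petB of the cytochrome complex at 6.13, 6.05 and 5.44 against 6.12, 7.06 and 6.19 in WT zinc. The same array was also the highest for the mitochondrial nad4 (7.42, 7.65 and 7.10 in RNAi zinc, 7.45, 8.63 and 7.49 in WT zinc) and cox1 (7.18, 7.19 and 7.54 in RNAi zinc, 7.49, 8.41 and 7.06 in WT zinc).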
